A study of Arabidopsis thaliana with 15 samples.

Results

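The genes described are 4 Arabidopsis thaliana genes for cold-regulated and dehydration-induced proteins: COR15A, COR15B, COR47 and LTI30. They were chosen as the probe sets that the array annotation pairs with these names. Each of the 4 genes had a single probe set paired with no other gene, so the set is 4 of 22746 probe sets tested. All 4 are late embryogenesis abundant (LEA) proteins, hydrophilic proteins that accumulate when plant cells lose water, as happens in drought and in freezing. COR15A (AT2G42540, probe set 263497_at) and COR15B (AT2G42530, probe set 263495_at) encode closely related proteins of the chloroplast stroma that stabilise membranes during freezing. COR47 (AT1G20440, probe set 259570_at) and LTI30 (AT3G50970, probe set 252102_at) encode dehydrins, a LEA class that coats membranes and proteins. In cold-treated Arabidopsis these genes are classic targets of the CBF transcription factors, abscisic acid also induces dehydrin genes, and the circadian clock sets the time of day at which the cold pathway is most responsive.

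COR15A and COR15B lie next to each other on chromosome 2 in the gene table, on the TAIR10.1 assembly of RefSeq. In the same table COR47 on chromosome 1 borders ERD10, another dehydrin gene, and LTI30 on chromosome 3 borders XERO1, also a dehydrin gene. Neither of these dehydrin neighbours had a probe set named here. The array's own genome build is not given in the sources used here, so no coordinates are printed. Cross-hybridisation between the probes of the COR15 pair was not tested.

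The series measured transcripts with 1 array per sample in mature leaves, in 5 groups of 3 biological replicates, 15 arrays in all. Col-0, the wild type, gave leaves at 3 times (0, 6 and 10 h) and rps2, the mutant, at 0 and 10 h only. The hours count from infiltration of the bacterium Pseudomonas syringae pv. maculicola, which carried AvrRpt2, at an optical density of 0.01 in 10 mM MgSO4. RPS2 is the resistance protein through which the plant senses the bacterial effector AvrRpt2, so Col-0 mounts effector-triggered immunity against this strain and a plant without functional RPS2 does not. All plants were grown on soil for 4 weeks at 22 °C with 12 h of light and 12 h of dark. The labels name no rps2 allele, no mock infiltration and no clock time of sampling, so each change over time joins infection, infiltration and time of day, which cannot be told apart. RPS2 itself had no probe set named here and is not analysed here, so the genotype labels could not be checked against it. In whole leaves, fewer cells of a type and less RNA per cell cannot be told apart.

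Each deposited value is a log2 difference from the median of its own probe set over the 15 arrays. A value of 0 is therefore that gene's middle array. Values of one gene can be compared between arrays, but the level of one gene cannot be set against that of another, and neither detection nor the presence of a marker can be read from them. The third array labelled rps2 10 h stood apart from its group. Over all probe sets its difference from the rps2 0 h arrays had a standard deviation (SD) of 0.170 to 0.200, while its difference from rps2 10 h replicates 1 and 2 had an SD of 0.949 and 0.942. Those replicates differed from each other with an SD of 0.207. The library labelled rps2 10 h replicate 3 is kept in the fit of all arrays. Changes of the 4 genes that use it, and calls named here that it moves, are given with and without it. The 24 poly-A control probe sets measure RNAs spiked into the samples. On them the Col-0 10 h arrays had means of 0.90 to 1.13, and no other array was above 0.12. The means of rps2 10 h replicates 1, 2 and 3 were -0.0050, -0.49 and -0.17, and replicate 2 was the lowest array. Centring the arrays on these controls moved the median change of all probe sets by -1.08 in Col-0 from 0 to 10 h, by 0.29 in rps2 over the same time, by -0.16 between the genotypes at 0 h and by 1.20 at 10 h. Member results whose direction or call moves with that centring are marked where they occur.

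COR15A was highest in Col-0 at 0 h, and low both in Col-0 at 10 h and in rps2 at 0 h. Its values in Col-0 were 0.91, 0.94 and 0.83 at 0 h, 0.01, 0.15 and 0.23 at 6 h, and -2.15, -2.69 and -2.55 at 10 h. In rps2 they were -1.75, -2.40 and -2.15 at 0 h, and 0.27, 0 and -2.02 in replicates 1, 2 and 3 at 10 h. The 3 Col-0 groups did not overlap, and rps2 replicates 1 and 2 at 10 h lay at the level of Col-0 at 6 h, whereas replicate 3 lay among the rps2 0 h arrays. Without replicate 3 the order of group means ran from Col-0 0 h at 0.89 ± 0.05 (SD, n = 3) through rps2 10 h at 0.14 (n = 2), Col-0 6 h at 0.13 ± 0.11 and rps2 0 h at -2.10 ± 0.33 to Col-0 10 h at -2.46 ± 0.28. Of these neighbours, rps2 10 h and Col-0 6 h overlapped, and so did rps2 0 h and Col-0 10 h.

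COR15B, the neighbouring COR15 protein gene, had the widest range of the 4 genes within Col-0. It stood at 2.89, 2.83 and 2.86 in Col-0 at 0 h, at 0.03, 0 and 0.21 at 6 h, and at -1.84, -1.95 and -1.75 at 10 h. In rps2 it stood at -0.06, -0.61 and -0.33 at 0 h and at 1.39, 1.07 and -0.07 at 10 h. The Col-0 groups fell in 2 separated steps, and rps2 10 h replicates 1 and 2 were above every rps2 0 h array, with replicate 3 again inside the rps2 0 h range. Group means without that array were 2.86 ± 0.03 (SD, n = 3) in Col-0 at 0 h, 1.23 (n = 2) in rps2 at 10 h, 0.08 ± 0.11 in Col-0 at 6 h, -0.33 ± 0.27 in rps2 at 0 h and -1.85 ± 0.10 in Col-0 at 10 h. No neighbours in this order overlapped.

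COR47, the acidic dehydrin gene, varied less. In Col-0 it was at 1.43, 1.51 and 1.48 at 0 h, at -0.16, 0.19 and 0 at 6 h, and at -1.02, -0.84 and -0.40 at 10 h. In rps2 it was at 0.13, -0.12 and 0.06 at 0 h and at -0.70, -0.34 and 0.11 at 10 h. Col-0 at 0 h was far above all other arrays, and the remaining groups were close together. The means were 1.47 ± 0.04 (SD, n = 3) in Col-0 at 0 h, 0.02 ± 0.13 in rps2 at 0 h, 0.01 ± 0.17 in Col-0 at 6 h, -0.52 (n = 2, without replicate 3) in rps2 at 10 h and -0.75 ± 0.32 in Col-0 at 10 h. The neighbours rps2 0 h and Col-0 6 h overlapped, as did rps2 10 h and Col-0 10 h.

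LTI30, the basic dehydrin gene, differed more between the genotypes than between the times. It was at 0, 0.11 and -0.07 in Col-0 at 0 h, at 0.71, 1.03 and 0.92 at 6 h, and at 0.04, 0.51 and 0.68 at 10 h. In rps2 it was at -3.00, -3.23 and -3.29 at 0 h and at -2.39, -1.97 and -3.19 at 10 h. Every rps2 array was below every Col-0 array, and rps2 replicate 3 at 10 h fell inside the rps2 0 h range, as it did for the other 3 genes. The order of means was Col-0 6 h at 0.89 ± 0.16 (SD, n = 3), Col-0 10 h at 0.41 ± 0.33, Col-0 0 h at 0.01 ± 0.09, rps2 10 h at -2.18 (n = 2, without replicate 3) and rps2 0 h at -3.17 ± 0.15. Col-0 10 h overlapped with Col-0 0 h, and no other neighbours overlapped.

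**Figure D1:**
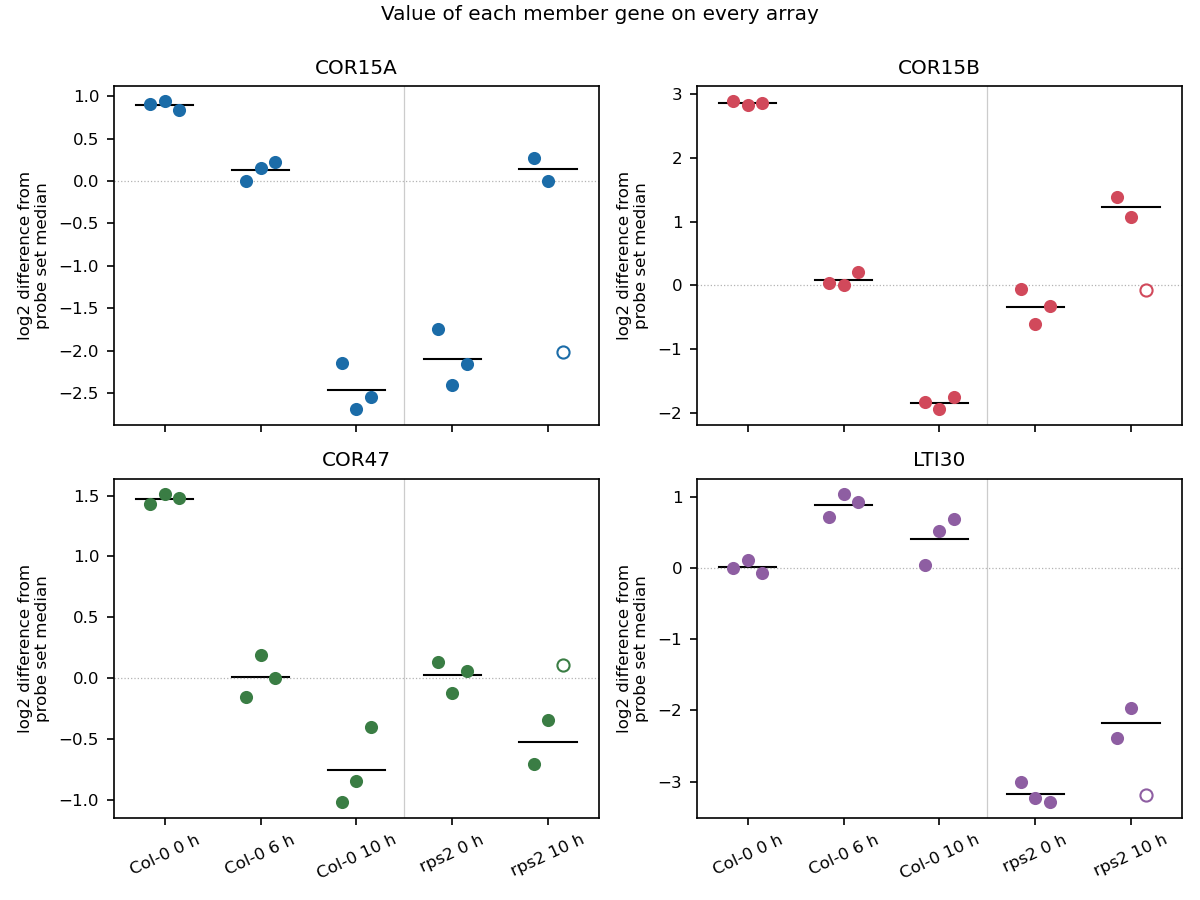
Value of COR15A, COR15B, COR47 and LTI30 on each of the 15 arrays, as the log2 difference from the probe set's own median (vertical axis), by group (horizontal axis). Each filled point is an array, the bar is the group mean, and the open point is rps2 10 h replicate 3, which is left out of the bar. For all 4 genes the open point lies within the range of the rps2 0 h arrays, and for LTI30 every rps2 array lies below every Col-0 array.

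The first comparison asks what happened in Col-0 during the 6 h after infiltration. COR15B and COR47 fell and LTI30 rose. COR15B changed by -2.78 ± 0.28 (standard error of the log2 change, adjusted p = 2.08e-06), a 6.86-fold lower level, and COR47 by -1.46 ± 0.19 (adjusted p = 2.35e-05), 2.75-fold lower. LTI30 rose by 0.87 ± 0.25 (adjusted p = 0.00933), 1.83-fold, and did not pass after repeated quantile normalization (0.85, adjusted p = 0.0768). All p-values here come from limma's moderated test, two-sided, with Benjamini-Hochberg adjustment over the 22746 probe sets and a threshold of 0.05. COR15A was lower by a log2 change of -0.76 with a standard error of 0.44 in the fit of all arrays, which did not pass (adjusted p = 0.17). Without rps2 10 h replicate 3 the shared estimate of its spread shrank, the same change had a standard error of 0.15, and it passed (adjusted p = 4.45e-04). With all arrays 2 of the 4 genes fell and 1 rose, where 28.6% of all probe sets were called lower and 25.5% higher. Without the array 3 fell, against 32.0% of all probe sets. The median change of the 4 genes was -1.11, against -0.04 over all probe sets.

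By 10 h in Col-0, COR15A, COR15B and COR47 were far below their starting level, while LTI30 was not. COR15A fell by 3.36 ± 0.44 on the log2 scale (adjusted p = 1.84e-05), a 10.3-fold lower level. COR15B fell by 4.71 ± 0.28 (adjusted p = 1.01e-08), 26.1-fold lower, and COR47 fell by 2.22 ± 0.19 (adjusted p = 3.54e-07), 4.67-fold lower. The changes at 6 h and 10 h share the 0 h arrays. COR15B and COR47 had covered 59.0% and 65.7% of their 10 h log2 change by 6 h, and COR15A 22.8%. The 3 genes that fell compare with 30.5% of all probe sets called lower, and the median change of the 4 genes was -2.79 against 0.0011 over all probe sets.

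LTI30 changed by 0.40 ± 0.25 between 0 and 10 h in Col-0 (adjusted p = 0.194). Without rps2 10 h replicate 3 this change passed (adjusted p = 0.0317), in a comparison where 31.1% of all probe sets were called higher. It was lost again when Col-0 0 h replicate 1 or 3, or Col-0 10 h replicate 2 or 3, was left out as well, with changes from 0.26 to 0.39. Its sign depends on the scaling, since centring on the poly-A controls turned it to -0.68 (adjusted p = 0.042). That centring left COR15A, COR15B and COR47 lower, with changes of -4.43, -5.78 and -3.30. It also turned the split of all calls, from 29.2% higher and 30.5% lower to 10.5% higher and 79.2% lower.

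Between 6 and 10 h in Col-0 the fall continued in 3 genes. COR15A fell by 2.59 ± 0.44 (adjusted p = 6.47e-04), COR15B changed by -1.93 ± 0.28 (adjusted p = 1.83e-04) and COR47 by -0.76 ± 0.19 (adjusted p = 0.00869). LTI30 changed by -0.47 ± 0.25 and did not pass (adjusted p = 0.183), but it passed without rps2 10 h replicate 3 (adjusted p = 0.0193) and after poly-A centring (-1.59, adjusted p = 1.22e-04). That call was lost when Col-0 6 h replicate 2 or 3 or Col-0 10 h replicate 1 was also left out, with changes from -0.46 to -0.29. The count of genes that fell was 3, against 17.2% of all probe sets, and 4 without the array, against 24.8%. The median change of the 4 genes was -1.35, against 0.012 over all probe sets. On the poly-A scale 90.3% of all probe sets were called lower between these times. When quantile normalization was repeated on the deposited values, only COR15A of the 4 genes still passed in this comparison.

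How COR15A and COR15B moved relative to each other was read from the difference of their centred values within each array, which says nothing of their relative levels. COR15A less COR15B was -1.97 ± 0.07 (SD, n = 3) at 0 h, 0.05 ± 0.09 at 6 h and -0.62 ± 0.27 at 10 h. In rps2 it was -1.77 ± 0.07 at 0 h and -1.09 at 10 h (n = 2, without replicate 3). The difference moved by 2.01 from 0 to 6 h and by -0.67 from 6 to 10 h in Col-0, and it was 0.20 higher in rps2 than in Col-0 at 0 h. The groups did not overlap in any of these 3 comparisons, and the exact two-sided permutation test gave p = 0.1 for each (0.1 after Benjamini-Hochberg adjustment over the 3), which is the smallest p that 3 arrays against 3 allow. None of these differences could therefore pass a threshold of 0.05, and they are given as a description.

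The rps2 mutant was sampled at 0 and 10 h only. With all 3 arrays at 10 h, COR15A changed by 1.52 ± 0.44 and COR15B by 1.13 ± 0.28, both with an adjusted p of 0.052, LTI30 by 0.66 ± 0.25 (adjusted p = 0.0768) and COR47 by -0.34 ± 0.19 (adjusted p = 0.215). None of the 4 genes passed limma's test, and neither did any other probe set (0% called higher). At an unadjusted p under 0.05, 8726 probe sets passed, COR15A, COR15B and LTI30 among them, and with array weights 11632 passed after adjustment. On the poly-A scale COR15A (1.81, adjusted p = 0.0174), COR15B (1.42, adjusted p = 0.0174) and LTI30 (0.95, adjusted p = 0.0372) passed with all arrays.

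Without replicate 3, COR15A, COR15B and LTI30 rose in rps2 and COR47 fell. COR15A rose by 2.24 ± 0.17 (adjusted p = 3.54e-08), a 4.72-fold higher level, COR15B by 1.56 ± 0.14 (adjusted p = 1.28e-07), 2.95-fold, and LTI30 by 0.996 ± 0.17 (adjusted p = 1.49e-04), 1.99-fold. COR47 fell by 0.55 ± 0.16 (adjusted p = 0.00975). On the poly-A scale the COR47 change was -0.23 and did not pass (adjusted p = 0.368), and with replicate 1 also left out it was -0.37 (adjusted p = 0.159). The share of all probe sets was 21.2% called higher, where 3 of the 4 genes were, and 26.9% called lower, where 1 was. The median change of the 4 genes was 1.28, against -0.07 over all probe sets. These values rest on replicates 1 and 2 at 10 h. The sign for LTI30 depends on the scaling here too, since repeating the quantile normalization turned its change to -1.71 without replicate 3 and to -1.20 with all arrays. Both turned changes passed (adjusted p = 2.47e-07 and 0.0418). That normalization was run on the centred values, not on signals. It stretches replicates 1 and 2, whose SD over probe sets was 0.43 and 0.38, against 0.74 to 1.13 on the other arrays.

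The 10 h changes of the genotypes share no arrays, so they can be set against each other. COR15A and COR15B moved in opposite directions, falling in Col-0 and, without replicate 3, rising in rps2. This opposition and the 0 h difference below were already in view when the genes were chosen, so neither is independent evidence about them. In the fit of all arrays, the 10 h change in rps2 exceeded that in Col-0 by 4.88 ± 0.62 for COR15A (adjusted p = 3.00e-05), by 5.84 ± 0.39 for COR15B (adjusted p = 1.06e-07) and by 1.89 ± 0.27 for COR47 (adjusted p = 8.12e-05). LTI30 gave 0.26 ± 0.35 (adjusted p = 0.591), and on the poly-A scale it passed (1.63, adjusted p = 0.00203). Without replicate 3 the differences were 5.60 ± 0.23, 6.27 ± 0.18, 1.68 ± 0.21 and 0.60 ± 0.23, and all 4 passed, LTI30 with an adjusted p of 0.0388. COR47 fell in both genotypes without replicate 3, with changes of -2.22 in Col-0 and -0.55 in rps2. Repeated quantile normalization ended the call for COR47 (0.99, adjusted p = 0.243) and turned the sign for LTI30. The LTI30 difference was then -1.50 with all arrays (adjusted p = 0.0453) and -2.01 without replicate 3 (adjusted p = 1.51e-06), so the opposite direction passed. The LTI30 call without replicate 3 was also lost when Col-0 0 h replicate 1 or 2, Col-0 10 h replicate 1, rps2 0 h replicate 2 or 3 or rps2 10 h replicate 2 was left out with it, with differences from 0.39 to 0.60.

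The difference between the 10 h changes was positive and past the threshold for 3 of the 4 genes with all arrays, where 22.1% of all probe sets were called higher. Without replicate 3 it was so for 4, where 25.3% were. The median over the 4 genes was 3.38, against -0.06 over all probe sets. The poly-A centring raised each of the 4 differences, by the 1.37 that it added to the median of all probe sets. It moved the split over all probe sets from 22.1% higher and 22.4% lower to 82.4% higher and 4.7% lower. A fall in Col-0 together with a rise in rps2, both past the threshold without replicate 3, was found in 702 probe sets, 3.09% of those tested, and COR15A and COR15B were among them.

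**Figure D2:**
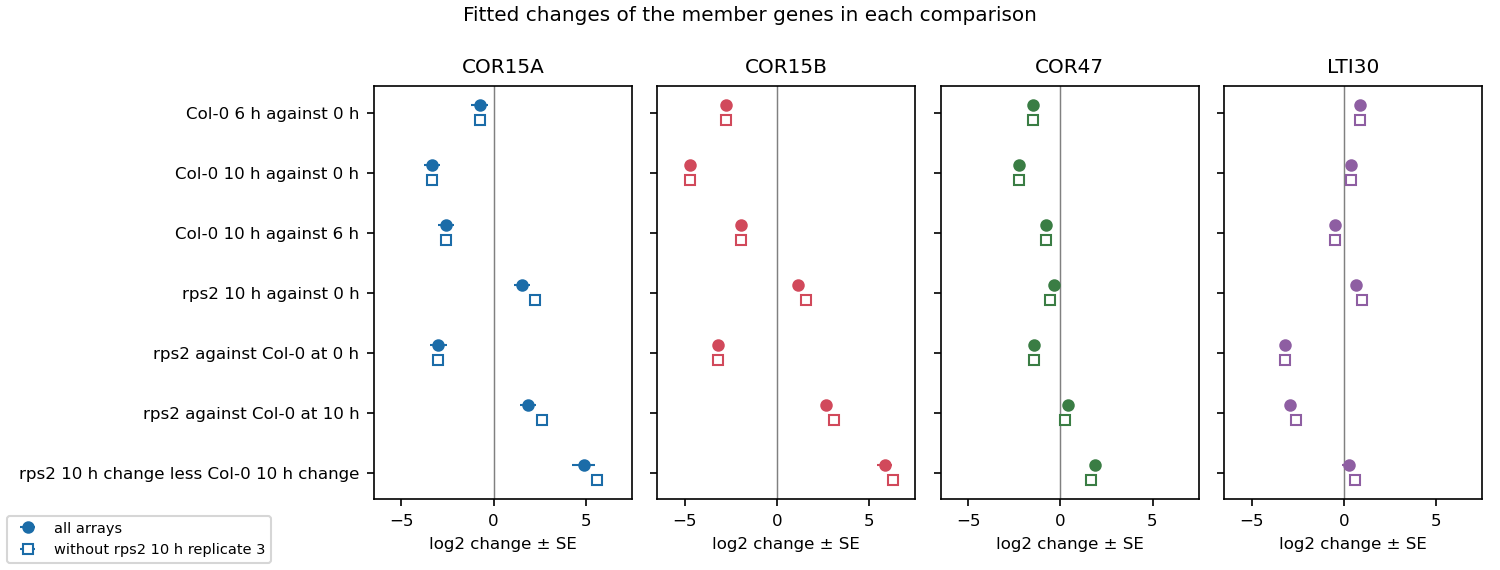
Fitted log2 change (horizontal axis, with its standard error as the bar) of COR15A, COR15B, COR47 and LTI30 in 7 comparisons (vertical axis), with all arrays (filled circles) and without rps2 10 h replicate 3 (open squares). COR15A and COR15B lie left of 0 for Col-0 at 10 h and right of 0 for rps2 at 10 h, and the 4 genes lie left of 0 for rps2 against Col-0 at 0 h.

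**Figure D3:**
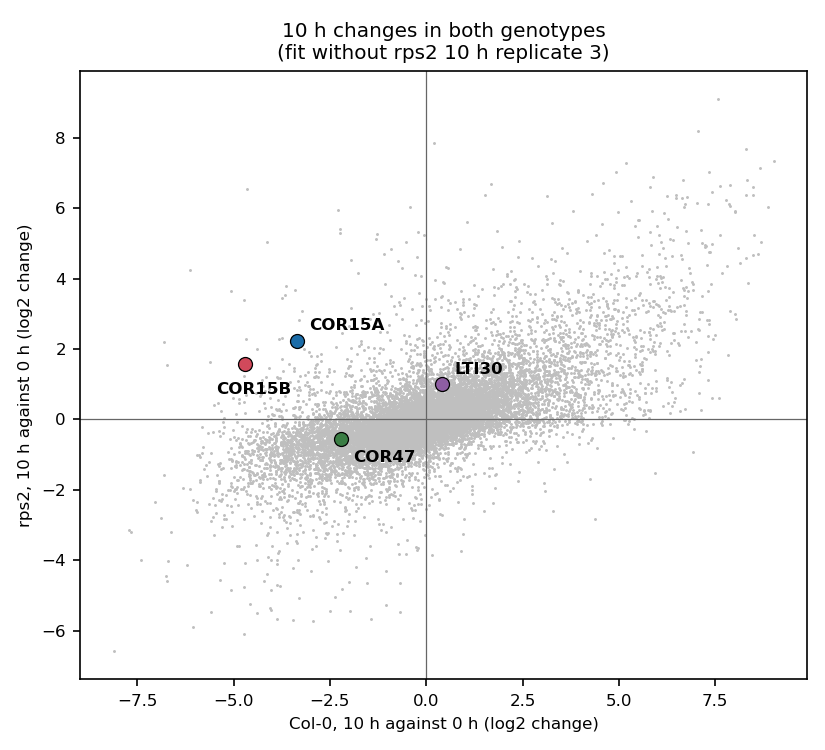
Log2 change from 0 to 10 h in Col-0 (horizontal axis) and in rps2 (vertical axis) for each of 22746 probe sets (grey), fitted without rps2 10 h replicate 3. COR15A (-3.36 and 2.24) and COR15B (-4.71 and 1.56) lie in the upper left, COR47 (-2.22 and -0.55) in the lower left and LTI30 (0.40 and 0.996) in the upper right.

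At 0 h, all 4 genes were lower in rps2 than in Col-0. LTI30 was lower by a log2 difference of -3.19 ± 0.25 (adjusted p = 4.48e-06), 9.10-fold, and COR15B by -3.19 ± 0.28 (adjusted p = 1.02e-05), 9.16-fold. COR15A differed by -2.99 ± 0.44 (adjusted p = 5.52e-04), 7.97-fold, and COR47 by -1.45 ± 0.19 (adjusted p = 2.56e-04), 2.73-fold. The groups overlapped for none of the 4 genes, but the share of all probe sets without overlap was not counted, so this is a description only. All 4 were called lower where 7.69% of all probe sets were, and again without replicate 3, where 13.9% were. The median difference of the 4 genes was -3.09, against 0.0031 over all probe sets. Only 0.154% of the probe sets had a difference as low as that of COR15B or lower, 0.163% as low as LTI30, 0.207% as low as COR15A and 1.39% as low as COR47. On the poly-A scale the differences ran from -3.36 to -1.61, and the split over all probe sets was 2.36% higher and 6.59% lower, against 8.24% and 7.69% on the deposited scale.

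**Figure D4:**
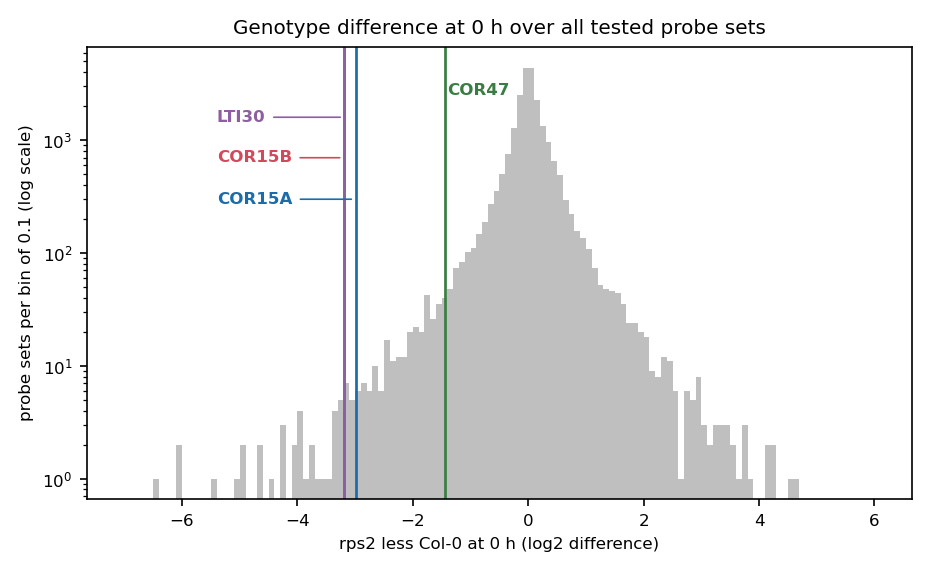
Number of probe sets (vertical axis, log scale) in bins of 0.1 of the log2 difference rps2 less Col-0 at 0 h (horizontal axis), over the 22746 probe sets tested. The lines mark COR15B and LTI30 at -3.19, drawn over each other, COR15A at -2.99 and COR47 at -1.45, all in the lower tail.

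At 10 h the COR15 genes were higher in rps2 than in Col-0, and LTI30 was lower. With all arrays COR15A was higher by 1.88 ± 0.44 (adjusted p = 0.0027) and COR15B by 2.64 ± 0.28 (adjusted p = 3.46e-06), while LTI30 differed by -2.92 ± 0.25 (adjusted p = 5.21e-07). COR47 differed by 0.44 ± 0.19, with groups that overlapped (adjusted p = 0.0694). Without replicate 3 the log2 differences were 2.60 ± 0.17 for COR15A, 3.07 ± 0.14 for COR15B, 0.23 ± 0.16 for COR47 (adjusted p = 0.24) and -2.59 ± 0.17 for LTI30. COR15A and COR15B were called higher in both fits, against 26.9% of all probe sets with all arrays and 27.8% without the array. LTI30 was called lower in both, against 28.2% and 29.6%. The median difference of the 4 genes was 1.16, against -0.05 over all probe sets. On the poly-A scale LTI30 was still lower, at -1.72, COR47 passed with a difference of 1.64, and 84.4% of all probe sets were called higher against 5.77% lower. Under repeated quantile normalization COR47 turned to -0.66 with all arrays (adjusted p = 0.223) and to -1.25 without replicate 3, where the opposite direction passed (adjusted p = 7.09e-04). It passed with the replicate number as a block (adjusted p = 0.0458), without Col-0 10 h replicate 3 (0.62, adjusted p = 0.0174) and without rps2 10 h replicate 1 (0.63, adjusted p = 0.0107). A fit of only the 10 h groups did not call COR15A (adjusted p = 0.0574).

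COR15A and COR15B also shared the 0 h difference, so that they fell in Col-0, rose in rps2 and started lower in rps2. This combination was met by 500 probe sets, 2.20% of those tested without replicate 3. The first 2 of these conditions share arrays with the last, since a group that starts low at 0 h enters both. In rps2 at 10 h without replicate 3, COR15B was between the 0 h and 6 h levels of Col-0, COR15A was at the 6 h level and LTI30 was below every Col-0 array.

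Across the 15 arrays the 4 genes did not follow one pattern. Pearson's r was 0.868 between COR15A and COR15B, 0.828 between COR15B and COR47 and 0.63 between COR15A and COR47. LTI30 had an r of 0.357 with COR15A, 0.123 with COR47 and 0.0054 with COR15B. The arrays fall into 5 groups, so these values describe group patterns and carry no test.

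The named genes most like each member were found by Pearson's r over the 15 arrays, among the 13512 other probe sets paired with a single gene. For COR15A they were AT4G38250 (r = 0.965), Cpn60beta2, a subunit of the chaperonin that folds proteins in the chloroplast (0.963), and AT4G30650 (0.963). For COR15B they were AT4G16190 (0.985), AT5G66420 (0.984) and CHL, the chloroplastic lipocalin (0.982). CHL had group means of 2.16, -0.22 and -1.37 in Col-0 at 0, 6 and 10 h, and of -0.05 and 1.02 in rps2 at 0 h and, without replicate 3, 10 h. For COR47 the closest were AT2G39920 (0.963), AT5G24460 (0.956) and AT3G56720 (0.956), and for LTI30 AT3G58570 (0.963), AT2G01970 (0.963) and PDC2, a pyruvate decarboxylase of ethanol fermentation (0.959). Without rps2 10 h replicate 3 these correlations lay between 0.954 and 0.986, and the order changed. The 3 genes named for COR15A and for COR15B were still their first 3, but AT5G24460 ranked 4 for COR47, and for LTI30 another gene ranked first, with AT2G01970, AT3G58570 and PDC2 at ranks 2, 3 and 4.

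**Figure D5:**
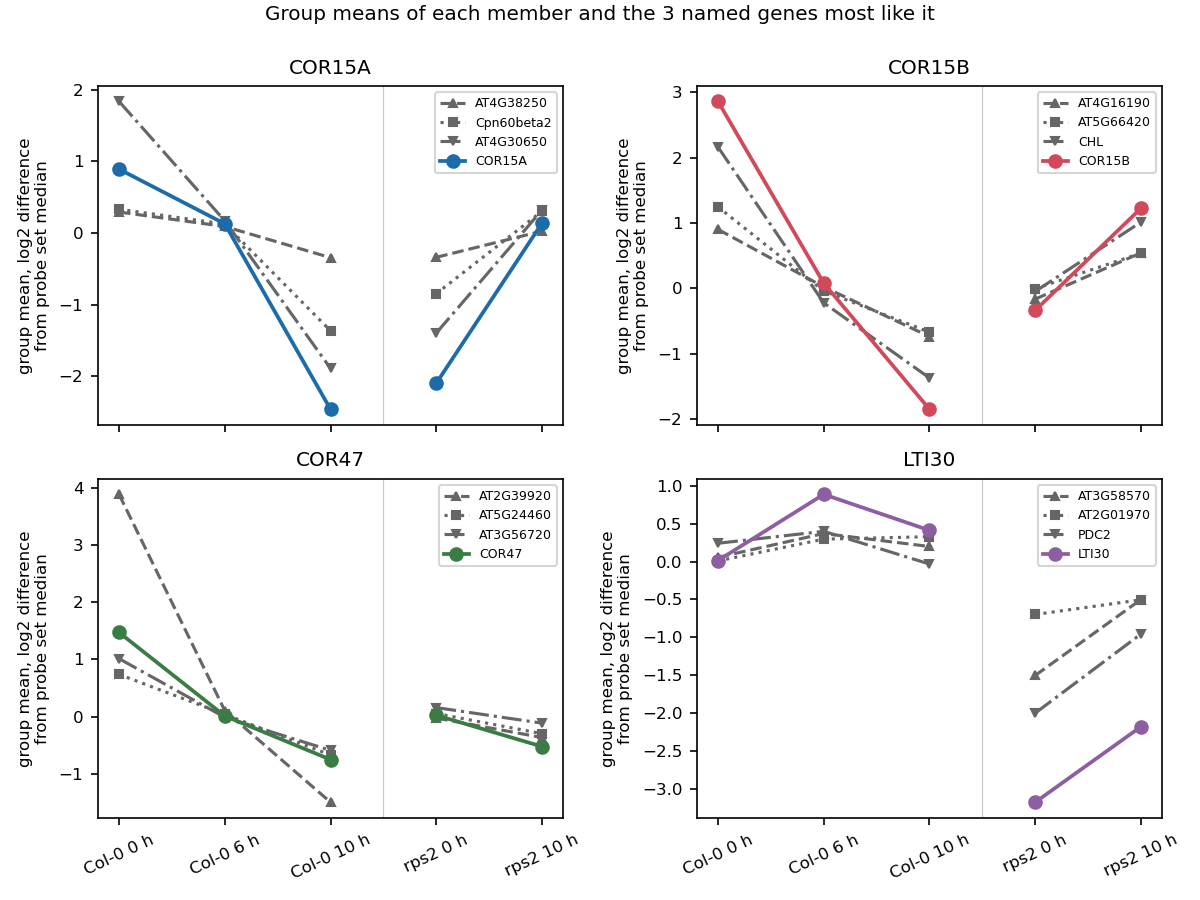
Group means (vertical axis, log2 difference from the probe set's own median, rps2 10 h without replicate 3) of COR15A, COR15B, COR47 and LTI30 (coloured) and of the 3 named genes with the highest correlation to each (grey), by group (horizontal axis), with lines joining the times of a genotype. The genes like COR15A and COR15B fall in Col-0 and stand higher in rps2 at 10 h than at 0 h, and those like LTI30 are lower in rps2 than in Col-0 at both times.

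Few other genes of the cold and dehydration pathways had a named probe set. Of 23 further cold-regulated and LEA genes, 2 were measured, AT1G54410 (listed here as the dehydrin HIRD11) and LEA4-5. With all arrays AT1G54410 fell by 0.39 ± 0.07 at 6 h in Col-0 (adjusted p = 2.82e-04) and was lower in rps2 at 0 h by a log2 difference of -0.61 ± 0.07 (adjusted p = 7.18e-05), as the 4 genes were. Its 6 h call was lost on the poly-A scale (-0.35). LEA4-5 went the other way in Col-0, rising by 0.70 ± 0.20 at 6 h (adjusted p = 0.00976) and by 2.46 ± 0.20 at 10 h (adjusted p = 2.30e-07), with a genotype difference at 0 h of 0.02 ± 0.20 (adjusted p = 0.976). Neither gene passed in rps2 in either fit. Without replicate 3, LEA4-5 changed by 0.07 ± 0.21 (adjusted p = 0.81) and AT1G54410 by -0.0041 ± 0.083 (adjusted p = 0.974).

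Of 17 regulators of cold signalling, STZ, a zinc-finger repressor of stress responses also called ZAT10, was the 1 measured. It rose in Col-0 by 5.01 ± 0.60 at 6 h (adjusted p = 1.10e-05) and by 6.31 ± 0.60 at 10 h (adjusted p = 9.36e-07), and in rps2 by 3.46 ± 0.34 without replicate 3 (adjusted p = 5.67e-07), while with all arrays its change in rps2 was 2.58 ± 0.60 and did not pass (adjusted p = 0.052). At 0 h its genotype difference was 0.37 ± 0.60 (adjusted p = 0.793). None of 20 abscisic acid genes was measured by name, and the CBF genes were not measured by name either, so the pathway above these 4 genes is not analysed here.

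Of 14 genes of the circadian clock 3 were measured, and they differed between the genotypes at 0 h. COR27, a cold-regulated gene that feeds into the clock, differed at 0 h by -6.06 ± 1.16 (rps2 less Col-0, adjusted p = 0.00341), AT4G33980 by -6.03 ± 0.82 (adjusted p = 3.33e-04) and the clock gene GI by -2.19 ± 0.60 (adjusted p = 0.025). In rps2 without replicate 3, COR27 rose by 6.05 ± 0.16 and AT4G33980 by 4.16 ± 0.15, whereas GI fell by 2.76 ± 0.13. With all arrays these rps2 changes were 4.02, 2.74 and -1.73, and none passed (adjusted p = 0.052, 0.052 and 0.0606). In Col-0 GI fell by 3.57 ± 0.60 by 10 h (adjusted p = 1.56e-04), and COR27 (-0.42, adjusted p = 0.785) and AT4G33980 (-1.77, adjusted p = 0.0839) did not pass with all arrays. Without replicate 3 the same changes passed, with an adjusted p of 0.0156 for COR27 and 6.48e-09 for AT4G33980. With all arrays the 3 clock genes were called lower in rps2 at 0 h, as were COR15A, COR15B, COR47 and LTI30, where 7.69% of all probe sets were. The part of sampling time in the results was not tested. The 0 h call for GI was lost when any single array of either 0 h group was left out, with differences between -2.30 and -2.07, and after repeated quantile normalization, and it passed without rps2 10 h replicate 3.

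Leaf cell markers also moved in Col-0. All 4 of the 4 measured mesophyll photosynthesis markers (of 6 listed: RCA, LHCB4.2, PSAN and PSBY) fell at 6 h and at 10 h, with changes at 10 h from -6.90 to -3.11. Of all probe sets 28.6% were called lower at 6 h and 30.5% at 10 h. None of the 4 markers passed between the genotypes at 0 h, with differences from 0.05 to 0.17. In rps2 the 4 had changes from -1.86 to -0.30 with all arrays, of which none passed (adjusted p from 0.052 to 0.067). Without replicate 3 all 4 fell, with changes from -2.81 to -0.44, where 26.9% of all probe sets were called lower. Of guard cell markers 1 of 4 was measured, FMA, which was lower in rps2 at 0 h by -0.45 ± 0.10 (adjusted p = 0.00699) and changed by -0.60 ± 0.10 at 10 h in Col-0. Of phloem markers 1 of 4 was measured, SWEET11, which changed by -1.22 ± 0.11 at 10 h in Col-0, with a genotype difference at 0 h of 0.10 ± 0.11 (adjusted p = 0.679). No epidermis, trichome or root marker was measured by name. Centred values cannot show which markers are near 0, and the part of cell make-up in the results for the 4 genes was not tested.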

How the data were processed

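The deposited table held log2 values of 22810 probe sets on 15 arrays. Per the submitters' processing notes the arrays were processed with RMA, which corrects background, quantile-normalises and summarises probes, and its version is not given in the sources used here. Every probe set had a median of 0, so the deposited log2 values are centred and run from -8.93 to 7.49. They hold no signal over background, so precision is limited by how many arrays there are. No 2 arrays were identical. Control probe sets (64) were set aside and 22746 were tested. The platform annotation paired 13513 with 1 gene, 503 with several and listed no gene for 8730, and 13436 of the first were found in the RefSeq gene table.

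A mean per group was fitted to all 15 arrays with limma 3.58.1 in R 4.3.3 (10 residual and 2.31 prior degrees of freedom, median standard error 0.12), and again without rps2 10 h replicate 3 (9 and 5.55, median 0.098). The 7 comparisons were adjusted over all probe sets. P-values measure the spread between the labelled biological replicates. The steps were checked by simulating Col-0 at 6 h and 0 h over 22746 probe sets: 66% of 100 changes of 0.5 and 99% of 100 changes of 1 were recovered, with 9 false calls. All 15 arrays were simulated around the Col-0 0 h means with independent normal noise. Its spread was estimated without rps2 10 h replicate 3. These shares therefore do not describe the fit of all arrays, whose standard errors include that array.

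The 4 genes, and the 9 lists with 95 genes (12 measured), were chosen with earlier results of these data known. The text names the 4 genes in every comparison, list genes past the threshold (up to 6 per list and comparison, and further values of those same genes) and the 3 named genes most correlated with each of the 4. No pairing by replicate number was seen in the groups checked, which left out rps2 10 h. Deviations from the group means of same-numbered arrays in 18 pairs of arrays correlated between -0.17 and 0.08, and none was over 0.1. Of 36 pairs with other numbers 3 were over 0.1, the highest at 0.16. The check cannot show a batch that follows other numbers or involves rps2 10 h. Alternatives covered the groups in the fit, a replicate block, variance models and array weights (statmod 1.5.0), centring on medians or on poly-A controls, repeated quantile normalization, the probe sets tested, thresholds and each array left out. Combinations of other settings with the removal of rps2 10 h replicate 3 were chosen after seeing the data. Low values were not filtered out, because centred values do not measure abundance.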

Additional observations from a re-analysis of the deposited data

Results flagged for a closer look

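Among the 4 genes and the measured cold, dehydration, regulator and clock genes, limma's test of the difference in 10 h change passed for 8. Over all probe sets 22.1% were called higher and 22.4% lower. The measured cell markers were not in this count, and all of them also passed, each with a positive difference. Each value below is the log2 change in rps2 less that in Col-0 over all arrays. For COR15A it was 4.88 and for COR15B 5.84, and for COR47 it was 1.89. Among the other cold and dehydration genes it was 0.37 for AT1G54410 and -2.42 for LEA4-5. The AT1G54410 call was lost under repeated quantile normalization (0.27, adjusted p = 0.1, and 0.21, adjusted p = 0.151, without rps2 10 h replicate 3). It was -3.72 for the regulator STZ. For COR27 it was 4.44 (adjusted p = 0.0438) and for AT4G33980 4.50. The COR27 call was lost when any single array other than rps2 10 h replicate 3 was left out, with differences between 3.37 and 4.59, and the difference was 6.47 without rps2 10 h replicate 3.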

How the results depend on the processing

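Every member kept its direction and its call for rps2 against Col-0 at 0 h under all alternatives run. Left out 1 at a time, the arrays gave 3 to 4 of the 4 genes past the threshold in each Col-0 comparison, for rps2 against Col-0 at 10 h and for the difference of the 10 h changes, 4 to 4 at 0 h, and 0 to 4 for rps2 from 0 to 10 h, where only leaving out rps2 10 h replicate 3 gave 4. Of all 22746 probe sets these removals called 11383 to 13576, 12736 to 14598 and 5380 to 9833 in Col-0 (0 to 6 h, 0 to 10 h, 6 to 10 h). Between the genotypes they called 2519 to 6854 at 0 h and 11327 to 13065 at 10 h. They called 9320 to 11773 for the difference of the 10 h changes and 0 to 10937 for rps2. For rps2 from 0 to 10 h, 0 genes were called over all arrays. Here 2 were called with a trended and robust variance (3921 of all probe sets) and 4 with array weights (11632). Repeated quantile normalization called 3 (6715 of all probe sets), with LTI30 in the opposite direction, and poly-A centring called 3 (4348). Without rps2 10 h replicate 3 there were 4 (10937 of all probe sets), also with only the groups compared (10674) or with the replicate block (10588). Quantile normalization without that array called 4 as well (13635 of all probe sets), with LTI30 again in the opposite direction. There were 3 with poly-A centring (8186 of all probe sets), and 3 to 4 with a second array left out. Repeated quantile normalization called 1 gene in Col-0 from 6 to 10 h, and 2064 of all probe sets. It stretches rps2 10 h replicates 1 and 2, whose SD over probe sets was 0.43 and 0.38 against 0.74 to 1.13 on the other arrays. With the replicate block, 4 genes passed for rps2 against Col-0 at 10 h (12277 of all probe sets), COR47 with an adjusted p of 0.0458. The count also changed in further comparisons, for example as follows. At 6 h in Col-0, COR15A passed with array weights (adjusted p = 8.13e-04), and LTI30 did not pass with quantile normalization (adjusted p = 0.0768). With poly-A centring LTI30 passed in Col-0 from 0 to 10 h (adjusted p = 0.042) and from 6 to 10 h (adjusted p = 1.22e-04). That centring also called LTI30 for the difference of the 10 h changes (adjusted p = 0.00203) and COR47 between the genotypes at 10 h (adjusted p = 1.55e-05).

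Directions turned as follows. LTI30 in Col-0 from 0 to 10 h was at -0.68 with poly-A centring in both fits, and in rps2 it was at -1.20 with quantile normalization and at -1.71 with that and without replicate 3. These turned LTI30 changes were all past the threshold. COR47 between the genotypes at 10 h was at -0.66 and -1.25 under the same quantile settings, the latter past the threshold. AT1G54410 was there at 0.96 and, without replicate 3, 0.98 with poly-A centring, both past the threshold. The LTI30 difference of the 10 h changes was -1.50 and -2.01 with quantile normalization, and with 1 or 2 arrays left out it ran from -0.012 (without rps2 10 h replicate 2) to 0.809 (without rps2 10 h replicates 1 and 3). Apart from the scaling itself, the cause was not tested.

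Counts over all probe sets moved by more than 1.5 times as follows. Requiring a log2 change of at least 1 left 6446 of 12305 in Col-0 from 0 to 6 h, 7650 of 13588 from 0 to 10 h, 2046 of 6801 from 6 to 10 h, 1000 of 3624 between the genotypes at 0 h, 6003 of 12514 at 10 h and 6151 of 10112 for the difference of the 10 h changes. Poly-A centring gave 20403, 20972, 2036, 20521 and 19815 for the last 5 of these. For rps2 from 0 to 10 h the 0 calls became 3921 with a trended variance, 11632 with array weights, 6715 with quantile normalization, 4348 with poly-A centring, 1 without rps2 0 h replicate 3 and 10937 without rps2 10 h replicate 3. At 0 h the count was 6856 with only the groups compared, 7385 with array weights, 2379 with quantile normalization, 2056 at a threshold of 0.01 and 6854 without rps2 10 h replicate 3. Quantile normalization left 2064 in Col-0 from 6 to 10 h. The centred values give no signal over background, so what it limits is not known.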
